A study of Rattus norvegicus with 6 samples.

Results

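The collagen chain genes of rat were examined in messenger RNA of regenerated sciatic nerve. Members were all rows of the deposited count table whose symbol has the form Col, a number, the letter a and a number, which gave 44 genes for 27 collagen types among 23091 rows. They were grouped by the kind of assembly that their chains build: 11 fibrillar genes, 9 network genes, 8 beaded-filament genes, 9 fibril-associated genes, 4 transmembrane genes and 3 others. The libraries came from wild-type (WT) male Sprague-Dawley rats with a defect made in the sciatic nerve. In the 3 NC libraries the wound was closed with nothing implanted. In the other 3 libraries, called implant 1 to implant 3, the nerve was implanted with GDNF-Gel/HA-Mg, a conduit named for the glial neurotrophic factor GDNF, which sustains motor neurons. The design asks how this conduit alters gene expression in the regenerating nerve. The labels used here give neither age, nor time after surgery, nor whether each library came from a separate animal, so the p-values cover just the spread among these libraries, which may be technical.

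Collagens are secreted or membrane-bound proteins in which alpha chains wind around each other into a stiff helix. Fibrillar collagens form the tensile fibres of the epineurium and endoneurium, the connective tissue layers around and within nerve fascicles. Type IV collagen builds the sheet of the basement membrane that surrounds each Schwann cell and axon unit and guides regrowing axons. Type VI collagen forms beaded filaments that link cells to fibres, and fibril-associated collagens sit on the surface of fibres.

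Total counts were 15897850 to 18491379 per library. Haemoglobin genes took 1.02% (NC 2) to 25.2% (NC 3) of the counts, so levels are given as CPM, a gene's count scaled to a common library size that is adjusted by the trimmed mean of M values (TMM), which allows for such shares. Schwann cell markers were detected in every library (4 of 4 reported), and their summed level was 659, 1499 and 683 CPM in the NC libraries, against 857, 511 and 803 CPM in the implant libraries, listed here and below from replicate 1 to 3. Fibroblast markers (7 of 7) summed to 6266 to 7593 CPM in the NC libraries and 4436 to 6900 CPM in the implant libraries. The libraries therefore differed within each group in the RNA of nerve cell types. In bulk tissue, fewer cells of a type and less RNA per cell cannot be told apart. The deposited counts carry no transcript lengths, so levels were compared between libraries and not between genes.

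As a group, the collagen genes did not separate the implant libraries from the NC libraries. Together they took 3.22%, 2.12% and 2.09% of all NC counts, against 2.52%, 2.57% and 1.84% of all implant counts. The widest 95% Wilson interval of these shares was 0.017 percentage points, which covers counting error only. On the CPM scale their sum was 24710 ± 4525 (SD, n = 3) in NC and 22890 ± 3432 (SD, n = 3) with the implant, and the groups overlapped. Of the 44 genes, 40 passed the filter on low counts and were tested with edgeR. At a Benjamini-Hochberg adjusted p under 0.05, 0 of the 40 were called in either direction, against 0% of all 13999 genes tested for higher and 0% for lower, and the smallest adjusted p over all genes was 1.0. At an unadjusted p under 0.05, 0 were higher, against 1.03% of all genes, and 1 was lower (Col22a1, described with its class), against 0.693%. DESeq2 also called 0 of the 40.

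In direction, 15 of the 40 tested genes had a log2 fold change above 0 and 25 below 0, with a median of -0.10 on the log2 scale. Over all genes tested the median was -0.01 and 47% lay above 0. The single-gene estimates ran from -1.20 to 0.81. Their median standard error of 0.423 was larger than the 0.233 of all genes. The ratio of a gene's highest to its lowest library had a median of 3.05 over the collagen genes and 1.68 over all genes. In 11 of the 40 (27.5%) that ratio was over 8, against 7.55% of all genes tested.

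**Figure D1:**
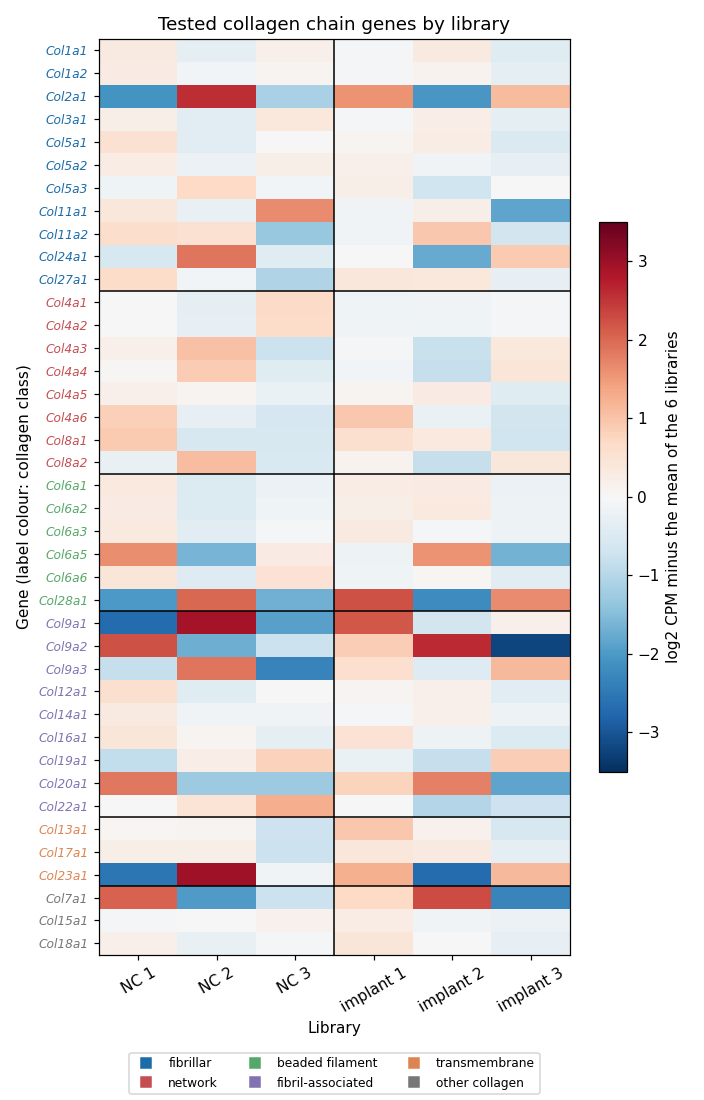
Level of each of the 40 tested collagen genes in each library, as log2 CPM minus the gene's mean over the 6 libraries, with genes in rows grouped by class and libraries in columns, NC left of the vertical line. The strongest colours fall in Col9a1, Col9a2, Col23a1 and other genes whose levels differed over 8-fold, and in each of them they lie on both sides of the line.

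Fibrillar collagens, the main tensile chains, took most of the collagen reads. Of the 11 genes, 2 had a log2 fold change above 0 and 9 below 0, with a median of -0.16, and none was called. They gave 59.4% to 64.5% of the collagen CPM in every library. Col3a1, whose chains form the thin reticular fibres of young connective tissue, was at 7835, 5172 and 8755 CPM in the NC libraries, against 6499, 8004 and 5307 CPM with the implant. NC 2 was the lowest library and implant 3 the next, so each group held a low library and the groups overlapped (log2 fold change -0.14 ± 0.33 SE). Col1a1, the alpha 1 chain of type I collagen, was at 3838, 2477 and 3456 CPM in NC, against 2961, 3798 and 2302 CPM with the implant (-0.11 ± 0.30). Col1a2, its partner chain, was at 3437, 2647 and 3026 CPM in NC, against 2734, 3092 and 2252 CPM with the implant (-0.17 ± 0.23). In both genes of type I collagen NC 1 and implant 2 were the highest and implant 3 the lowest.

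Type V collagen, which sets the width of type I fibres, was read in all 3 of its chains. Col5a1 was at 719, 383 and 487 CPM in NC, against 532, 590 and 346 CPM with the implant, and Col5a2 lay between 743 and 1087 CPM. Col5a3, a chain that Schwann cells are known to make, was highest in NC 2 at 548 CPM and lowest in implant 2 at 211 CPM, the reverse of the Col5a1 order for these libraries. Col27a1 lay between 15.9 and 51.1 CPM and Col11a2 between 1.81 and 8.69 CPM, with the groups overlapping in both.

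The other 3 fibrillar genes differed over 8-fold between libraries. Col11a1, a chain of the thin fibrils of cartilage, was at 56.6, 36.0 and 134 CPM in NC, against 39.1, 49.4 and 11.9 CPM with the implant. NC 3 was the highest and implant 3 the lowest, while the remaining libraries lay between 36.0 and 56.6 CPM in both groups, and the log2 fold change was -1.17 ± 0.67 (unadjusted p = 0.130 by edgeR). Of the cartilage and bone markers (6 of 6 detected, summed level 31.4 to 85.4 CPM in NC and 40.2 to 80.2 CPM with the implant, Bglap at 0 in NC 3 and implant 1), Acan had the same highest and lowest libraries as Col11a1, at 12.6 and 0.295 CPM. Comp and Ibsp were highest in implant 3 and Runx2 was lowest in NC 3, so the list did not share 1 order, and its part in the result was not tested. Col2a1, the main chain of cartilage fibrils, was at 0.519, 13.2 and 1.01 CPM in NC, against 6.56, 0.543 and 4.72 CPM with the implant. Its highest library was NC 2 and its lowest were NC 1 and implant 2. Col24a1, a fibrillar chain known from developing bone and cornea, was at 3.01, 16.3 and 3.33 CPM in NC, against 4.45, 1.304 and 8.37 CPM with the implant, again highest in NC 2 and lowest in implant 2.

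Network collagens were the only class with no tested member over 8-fold apart, the widest of the 8 tested genes spanning 3.68-fold from lowest to highest library. Of these, 2 had a log2 fold change above 0 and 6 below 0, with a median of -0.28, and none was called. Col4a1 and Col4a2 are the chains of the common basement membrane trimer. In the RefSeq annotation of build GRCr8 they are neighbours that start on opposite strands, and the 76 bases between their starts, shown because the ratio of the pair was the steadiest of those examined, lie at chr16:84885521-84885596 (plus strand). Capitals mark GGGCGG, the GC box, on either strand, and CCAAT on either strand was searched as well and had no match in the gap.
Col4a2 to Col4a1: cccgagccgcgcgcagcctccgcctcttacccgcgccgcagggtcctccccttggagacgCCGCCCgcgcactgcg

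Col4a1 was at 1805, 1468 and 2911 CPM in NC, against 1636, 1668 and 1736 CPM with the implant (log2 fold change -0.30 ± 0.29). Col4a2 was at 1145, 937 and 1808 CPM in NC, against 1063, 1048 and 1095 CPM with the implant (-0.28 ± 0.28). The implant libraries lay close together, NC 3 stood above them and NC 2 below them in both genes. Endothelial markers (5 of 5 detected) summed to 600 to 1461 CPM in NC and 899 to 1207 CPM with the implant. Their sum was also highest in NC 3, while Tie1 and Emcn were highest in implant 2, at 180 and 110 CPM. The part of the endothelial markers in the result was not tested. Summed adipocyte markers (5 of 5 detected) were highest in NC 3 and lowest in NC 2 as well. Their sum was 2481, 1055 and 7356 CPM in NC, against 1328, 2257 and 1644 CPM with the implant, and its part was not tested. Without NC 3 the log2 fold change was 0.04 for Col4a1.

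The other type IV chains, which replace the common trimer in specialised basement membranes, were all in overlap. Col4a4 was at 58.3, 106 and 42.4 CPM in NC, against 53.0, 32.7 and 76.4 CPM with the implant, and Col4a3 followed the same order of libraries between 4.56 and 15.8 CPM. Col4a5 lay between 28.5 and 46.9 CPM and Col4a6 between 1.18 and 3.57 CPM. Col8a1, a short-chain collagen of vessel walls and of the membrane under the corneal endothelium, was at 180, 64.7 and 64.6 CPM in NC, against 141, 120 and 58.4 CPM with the implant (log2 fold change 0.05 ± 0.52). Its partner Col8a2 was lowest in implant 2 at 37.3 CPM and highest in NC 2 at 137 CPM.

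**Figure D2:**
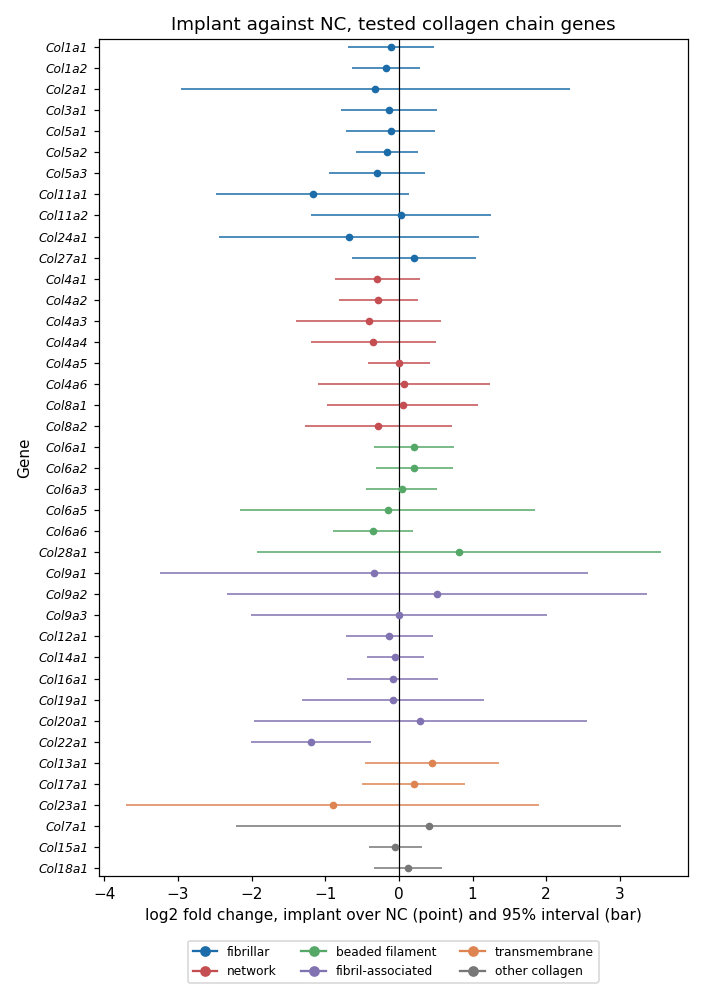
Log2 fold change of implant over NC (points) from edgeR for the 40 tested collagen genes, coloured by class. Bars are approximate 95% intervals, narrower than the test implies. The interval crosses 0 in every gene except Col22a1, and is widest in genes such as Col9a1, Col9a2 and Col23a1 whose replicates were far apart.

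Beaded-filament collagens had more members above 0 than below, though none passed the test. Of 6 tested genes, 4 had a log2 fold change above 0 and 2 below 0, with a median of 0.12. Col6a1, a chain of type VI collagen, was at 1306, 746 and 909 CPM in NC, against 1237, 1279 and 898 CPM with the implant (log2 fold change 0.20 ± 0.28). Col6a2 was at 1163, 679 and 856 CPM in NC, against 1089, 1197 and 834 CPM with the implant, and Col6a3, the largest chain of the trimer, was at 837, 512 and 630 CPM in NC, against 825, 622 and 582 CPM with the implant. NC 2 was the lowest library in all 3 genes, and NC 1 lay among the implant libraries or above them. Col6a5 and Col6a6, alternative chains related to Col6a3, differed in spread. Col6a6 lay between 50.5 and 97.6 CPM, whereas Col6a5 was at 139, 14.6 and 55.01 CPM in NC, against 39.7, 134 and 14.3 CPM with the implant. Col28a1, a collagen known from the peripheral nerve, where it lies around Schwann cells, was at 12.5, 204 and 15.5 CPM in NC, against 237, 10.9 and 158 CPM with the implant. It was thus high in 1 NC library and 2 implant libraries, and the log2 fold change of 0.81 had a standard error of 1.40.

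Fibril-associated collagens ranged from members that varied little to the most scattered of the tested genes. Of 9 tested genes, 3 had a log2 fold change above 0 and 6 below 0, with a median of -0.08, and none was called. Col14a1, which coats type I fibres, was at 800, 598 and 587 CPM in NC, against 619, 726 and 571 CPM with the implant, the narrowest spread of the class at 1.40-fold. Col12a1, its relative in loaded connective tissue, was at 660, 332 and 445 CPM in NC, against 472, 504 and 336 CPM with the implant. Col16a1 was at 300, 240 and 176 CPM in NC, against 316, 198 and 162 CPM with the implant. The groups overlapped in each of these 3 genes, and Col19a1, a rare chain, lay between 0.571 and 1.89 CPM.

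Col22a1, a collagen known from the junctions of muscle and tendon, was the only tested collagen gene whose groups did not overlap. It was at 8.46, 11.6 and 20.02 CPM in NC, against 8.31, 4.08 and 5.07 CPM with the implant, or 13.4 ± 5.98 against 5.82 ± 2.22 CPM (SD, n = 3 each). NC 1 and implant 1 were almost level, and NC 3 was the highest. The log2 fold change was -1.20 ± 0.42, with an approximate 95% interval of -2.01 to -0.38 that is narrower than the test implies. The unadjusted p was 0.0277 and the adjusted p 1.0 by edgeR. Leaving out NC 3, implant 2 or implant 3 gave unadjusted edgeR p-values of 0.0788, 0.0817 and 0.0819. Among the 40 genes, 1 lay wholly below NC (2.5%), against 2.88% of all genes tested, and 0 lay wholly above, against 2.8%, so the share is near the background. Muscle markers (5 of 5 detected) summed to 22.3, 272 and 1016 CPM in NC and to 62.8, 1328 and 6541 CPM with the implant, and their part in the result was not tested. Within NC the muscle sum and Col22a1 had the same order of libraries, and implant 3, with the highest sum, was the second lowest for Col22a1.

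The 3 chains of type IX collagen, which in cartilage join into a single molecule on the fibril surface, did not run together. Col9a2 was at 54.1, 3.53 and 6.94 CPM in NC, against 20.9, 70.5 and 1.24 CPM with the implant, the widest spread of any tested collagen gene at 56.9-fold. Col9a3 was at 12.7, 79.9 and 4.34 CPM in NC, against 33.0, 16.03 and 48.2 CPM with the implant, and Col9a1 was at 0.208, 10.1 and 0.361 CPM in NC, against 6.09, 0.869 and 1.53 CPM with the implant. NC 2 was the highest library for Col9a1 and Col9a3 but among the lowest for Col9a2. Both groups held high and low libraries of each chain. Among the NC libraries, NC 2 was the highest for Col9a1, Col9a3 and Col28a1 and the lowest for Col6a6. Leaving it out thus moved their estimates in a direction known beforehand. Without NC 2, Col9a1 and Col9a3 had an unadjusted edgeR p under 0.05, as did Col28a1, Col6a6 and Col22a1. That made 5 genes in place of 1, and none had an adjusted p under 0.05. Each other library left out gave 0 or 1 such gene. Without NC 2, 3 of the 40 tested collagen genes passed that p and were higher with the implant (Col9a3, Col9a1 and Col28a1). The share was 1.95% over all 14239 genes tested without NC 2. In the other direction, 2 of the 40 were lower (Col6a6 and Col22a1), against 2.08%.

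The transmembrane collagens, whose chains are anchored in the cell membrane, were read little. Of 3 tested genes, 2 had a log2 fold change above 0 and 1 below 0, with a median of 0.20. Col23a1 was at 1.14, 51.6 and 6.07 CPM in NC, against 15.8, 1.03 and 14.7 CPM with the implant, a 49.9-fold spread with NC 2 at the top and implant 2 at the bottom. Col17a1, the hemidesmosome collagen of epithelia, was at 5.76, 5.84 and 2.96 CPM in NC, against 6.56, 6.25 and 3.95 CPM with the implant. The 3 keratinocyte markers in the table summed to 1.88 to 3.79 CPM in NC and 3.30 to 4.80 CPM with the implant. Col13a1, found at neuromuscular junctions, lay between 1.81 and 5.74 CPM.

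Of the 3 remaining genes, Col15a1 and Col18a1 code for multiplexins, collagens of the basement membrane zone that carry glycosaminoglycan chains, and Col7a1 for the anchoring fibril. Col15a1 was at 584, 600 and 681 CPM in NC, against 722, 561 and 523 CPM with the implant, the narrowest spread of all 40 genes at 1.38-fold. Col18a1 was at 587, 432 and 503 CPM in NC, against 706, 524 and 429 CPM with the implant. Both were highest in implant 1 and lowest in implant 3, with NC between. Col7a1 was at 73.7, 4.45 and 10.5 CPM in NC, against 28.2, 85.6 and 3.54 CPM with the implant, and its highest libraries, implant 2 and NC 1, belonged to different groups.

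The 11 genes that differed over 8-fold fell mostly into 2 orders of libraries, which were read from the values and carry no test. In Col6a5, Col9a2, Col20a1 and Col7a1, NC 1 and implant 2 were the 2 highest libraries. In Col28a1, Col23a1, Col9a3, Col9a1, Col2a1 and Col24a1, NC 2, implant 1 and implant 3 were the 3 highest. Over all tested collagen genes the first order was found in 13 of 40 (32.5%), against 9.85% of all genes tested, and the second in 8 of 40 (20%), against 16.2%. The first group of 13 also holds Col1a1, Col1a2, Col5a1, Col6a1, Col6a2, Col12a1 and Col14a1, all with small differences. In 16 of 40 genes (40%) implant 3 was the lowest library, against 15.6% of all genes, and NC 3 was the highest in 6 (15.0%), against 24.8%. Col11a1 followed neither order.

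Some cell type markers moved with either order. As in the first order, the summed cartilage and bone markers were highest in NC 1 and implant 2, at 85.4 and 80.2 CPM. So were Runx2 and Matn3 of that list and Pdgfra and Pi16 of the fibroblast list, but not the other members of these lists. Matn3 was too low to test. As in the second order, the summed Schwann cell markers were highest in NC 2, implant 1 and implant 3. The range of this sum was narrower than that of the second-order collagen genes that differed over 8-fold. Sox10, the transcription factor that defines Schwann cells, was highest in the same libraries, at 154, 243 and 21.8 CPM in NC, against 179, 122 and 161 CPM with the implant, as was Cdh19, a cadherin of these cells, at 91.8, 260 and 23.7 CPM in NC, against 150, 63.8 and 129 CPM. Erbb3 and S100b were highest in NC 2 but did not follow the rest of that order, and none of the 4 was at 0. Perineurial markers (4 of 5 detected, Lypd2 at 0 in all libraries) summed to 1101 to 3200 CPM in NC and 1077 to 3825 CPM with the implant. Their sum, most of it Itgb4, was highest in the same 3 libraries, as were Itgb4, Cldn1 and Slc2a1. Krt23 was instead highest in NC 3 at 1.16 CPM and lowest in implant 3 at 0.236 CPM. The summed fibroblast markers were lowest in implant 3, as were 16 of the collagen genes. Of these markers, Dpt and Cd34 were instead lowest in NC 2 and Sox9 in NC 3. The part of these cell types in the collagen values was not tested.

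**Figure D3:**
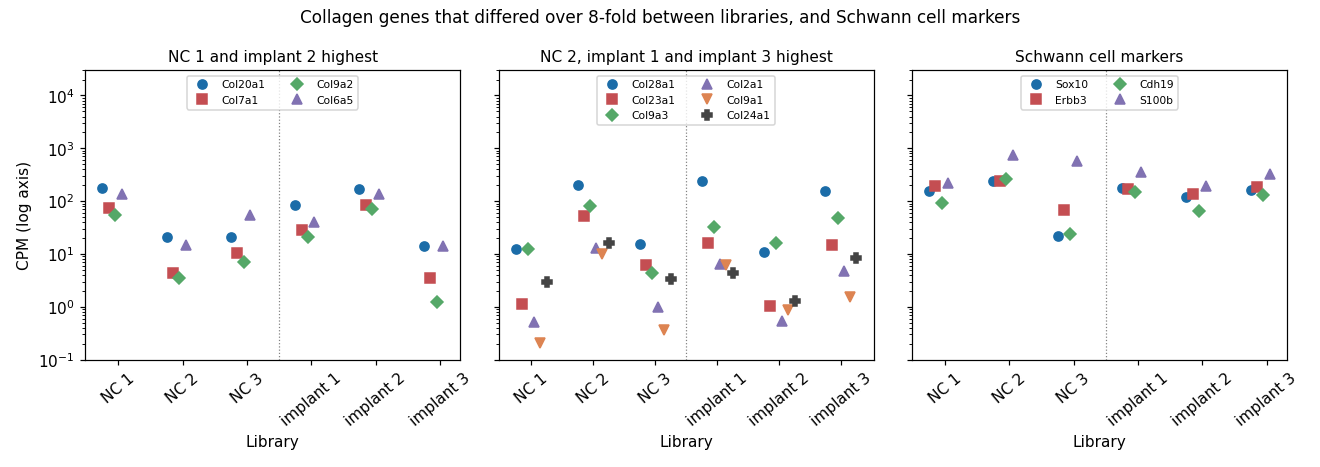
CPM on a log axis by library for the 10 collagen genes over 8-fold apart that follow either order, with Schwann cell markers in the right panel and a dotted line between NC and implant. Left, NC 1 and implant 2 are highest, and in the middle and, for Sox10 and Cdh19, on the right, NC 2, implant 1 and implant 3 are highest.

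The sequences before the starts of the 2 widest members of each order are shown. The members of different orders ran in opposite directions in NC 1, NC 2, implant 2 and implant 3. NC 3 was not among the high libraries of any of them, and Col9a1 had only 4 and 5 counts in NC 1 and NC 3. Each is the 120 bases before the RefSeq start in build GRCr8 on the plus strand, at chr5:139892678-139892797 for Col9a2, chr8:118483244-118483363 for Col7a1, chr9:34081244-34081363 for Col9a1 and chr10:36050207-36050326 for Col23a1. Capitals mark any match on either strand to 5 motifs, none of which contains another. They are the CCAAT box (letters CCAAT), the GC box (letters GGGCGG), the TATA box (letters TATAAA), the AP-1 site (letters TGANTCA) and the core bound by SOX factors (letters ACAAAG).
Col9a2: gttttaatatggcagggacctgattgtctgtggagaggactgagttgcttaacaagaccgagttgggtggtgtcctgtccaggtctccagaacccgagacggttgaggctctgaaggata
Col7a1: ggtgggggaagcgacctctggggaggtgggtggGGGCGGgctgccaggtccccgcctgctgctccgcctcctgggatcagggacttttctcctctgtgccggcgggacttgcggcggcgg
Col9a1: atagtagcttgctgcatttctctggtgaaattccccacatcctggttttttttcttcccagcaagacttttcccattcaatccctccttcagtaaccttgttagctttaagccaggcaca
Col23a1: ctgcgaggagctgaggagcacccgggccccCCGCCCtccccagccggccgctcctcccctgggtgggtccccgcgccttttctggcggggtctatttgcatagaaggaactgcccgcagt

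Col7a1 and Col23a1, which belong to different orders, each hold a GC box in this window, and Col9a2 and Col9a1 hold none of the 5 motifs. RefSeq promoters were matched for 35 of the 44 members. In the 250 bases before the start, GGGCGG was found in 54.3% of these, against 32.4% of all 27457 promoters. The windows of Col4a1 and Col4a2 overlap, so the GC box between their starts was counted for both. CCAAT was found in 31.4% against 34.3%, TATAAA in 11.4% against 13.1%, TGANTCA in 2.86% against 6.36% and ACAAAG in 8.57% against 16%. A match to these letters is a description of the sequence, not a bound site.

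Among 10 chain ratios, those within type IV and type VI collagen included the steadiest and that within type V the widest. Col4a1 was read 1.54 to 1.61 times as much as Col4a2 in every library, and the ratio of Col6a1 to Col6a2 stayed between 1.06 and 1.14. Some counts of Col4a1 and Col4a2 were divided between these genes before deposit, as described below. The part of this division in their steady ratio was not tested. The ratio of Col5a1 to Col5a2 ran from 0.465 to 0.702, a 1.51-fold range. The ratio of Col1a1 to Col1a2 ran from 0.936 to 1.23 and that of Col3a1 to Col1a1 from 2.04 to 2.53. The ratio of Col6a3 to Col6a1 was 0.486 in implant 2 and 0.640 to 0.693 in the other 5 libraries. Compared between the groups over the 10 ratios, an exact two-sided permutation test gave p-values of 0.3 to 1.0, each with an adjusted p of 1.0, where 3 against 3 libraries cannot go below 0.1.

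Other pairs, chosen after their values were seen and so given with no test, did not keep their ratio. Col9a2 over Col9a3 was 4.27, 0.0441 and 1.60 in NC and 0.634, 4.40 and 0.0257 with the implant, a 171-fold range. Col8a1 over Col8a2 was 3.28, 0.472 and 1.42 in NC and 1.98, 3.22 and 0.674 with the implant. Col6a5 over Col6a6 ran from 0.273 in implant 3 to 1.86 in implant 2, and Col5a3 over Col5a1 from 0.358 in implant 2 to 1.43 in NC 2. In each of the first 3 of these ratios NC 1 and implant 2 were the 2 highest libraries and NC 2 and implant 3 the 2 lowest, so libraries of different groups were closer to each other than to their own group.

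**Figure D4:**
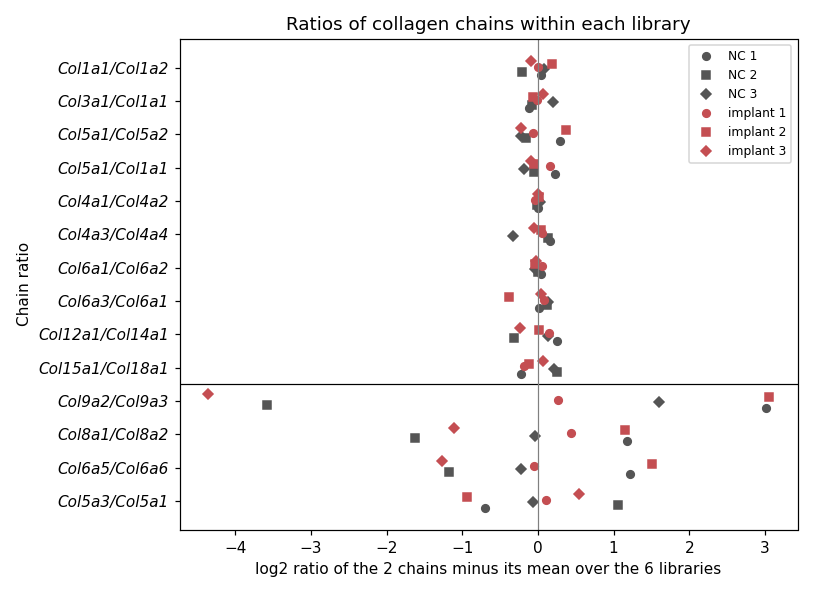
Log2 ratio of 2 collagen chains in each library minus its mean over the 6 libraries, with NC in grey, implant in red and the replicate number by shape. The 10 ratios above the line span at most 1.51-fold, while the 4 below it, chosen after their values were seen, spread widely with both colours on each side.

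Some collagen counts were divided with a neighbouring gene before deposit. Counts of Col4a1 with Col4a2, of Col6a6 with Pik3r4 and of Col20a1 with Arfgap1 were not whole in all 6 libraries but added up to whole numbers within 0.011, and those of Col4a3 with Col4a4 did so in 3 libraries. For Col4a1 and Col4a2 the summed level spanned 1.96-fold, close to each gene alone (1.98-fold and 1.93-fold). Col20a1, a fibril-associated collagen that lies next to Arfgap1 in the RefSeq annotation, was at 179, 20.8 and 20.6 CPM in NC, against 86.4, 170 and 14.0 CPM with the implant. Arfgap1, a regulator of Golgi vesicle traffic, was at 0.771, 25.8 and 35.2 CPM in NC, against 16.4, 4.16 and 31.8 CPM with the implant, low where Col20a1 was high. Their sum was 180, 46.6 and 55.7 CPM in NC and 103, 174 and 45.8 CPM with the implant. The sum spanned 3.93-fold, against 12.8-fold for Col20a1 alone, so its wide spread is uncertain. The log2 fold change was 0.29 ± 1.15 for Col20a1 alone and 0.19 ± 0.68 for the sum (unadjusted p = 0.788 by edgeR's quasi-likelihood test with Benjamini-Hochberg adjusted p = 1.0).

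**Figure D5:**
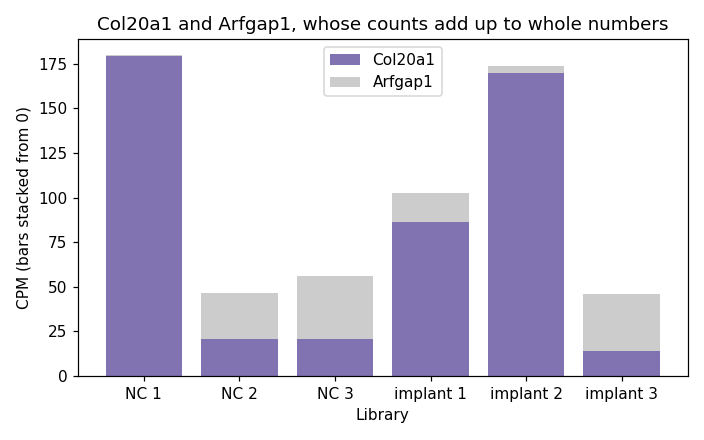
CPM of Col20a1 and Arfgap1 stacked from 0 in each library. Arfgap1 is smallest in NC 1 and implant 2, where Col20a1 is largest, and the stacked total is lowest in implant 3 at 45.8 CPM.

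Genes that make, process, bind and degrade collagen did not separate the groups either. Of 57 listed genes, 55 were in the table and 50 were tested. None was called in either direction, against 0% of all genes tested. At an unadjusted edgeR p under 0.05, 0 were higher and 0 lower, against 1.03% and 0.693% of all genes. None lay wholly above or wholly below the NC libraries, against 2.8% and 2.88% of all genes. The log2 fold change was above 0 in 27 and below 0 in 23, and 47% of all genes lay above 0. Of 21 tested genes for folding and modification of the chains, 7 were above 0 and 14 below, with a median of -0.02. P3h4, a partner of the lysyl hydroxylase complex, was at 18.7 ± 1.21 CPM in NC and 23.3 ± 4.10 CPM with the implant (SD, n = 3 each), and P3h1, a prolyl 3-hydroxylase, at 45.4 ± 4.203 and 40.4 ± 3.23 CPM. Of 11 genes for procollagen processing and cross-linking, 6 were above 0 and 5 below, with a median of 0.03. Lox, the lysyl oxidase that cross-links fibres, was at 30.7 ± 9.93 CPM in NC and 21.2 ± 8.86 CPM with the implant, and Adamts14, a procollagen peptidase, at 5.53 ± 1.28 and 7.29 ± 2.91 CPM.

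Of 9 collagen receptors, 6 were above 0 and 3 below, with a median of 0.04. Ddr2, a receptor kinase for fibrillar collagen, was at 177 ± 21.0 CPM in NC and 162 ± 6.91 CPM with the implant, and Itga10, an integrin chain, at 1.68 ± 0.708 and 2.46 ± 1.67 CPM. Of 9 genes for collagen breakdown, 8 were above 0 and 1 below, with a median of 0.26. Mmp9, a gelatinase, was at 1.25, 13.6 and 5.93 CPM in NC, against 30.7, 2.93 and 80.4 CPM with the implant. Implant 2 lay below 2 of the NC libraries, and the log2 fold change of 2.45 ± 1.26 had an unadjusted edgeR p of 0.0986 and an adjusted p of 1.0. Ctsk, the lysosomal collagenase cathepsin K, was at 152 ± 34.9 CPM in NC and 194 ± 23.0 CPM with the implant, with an unadjusted edgeR p of 0.128.

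The remaining 4 collagen genes were too low to test. Col26a1 had 2, 33 and 4 counts in NC, against 35, 1 and 8 with the implant, the same libraries being highest as for Col28a1. Col25a1 had 24, 0 and 2 counts in NC, against 7, 6 and 2 with the implant, and a count of 0 in NC 2 allows a level of up to 0.173 CPM. Col6a4 had 12, 2 and 0 counts in NC, where 0 allows up to 0.217 CPM in NC 3, and 11, 5 and 7 with the implant. Col10a1, the collagen of hypertrophic cartilage, had 2, 12 and 2 counts in NC, against 8, 2 and 3 with the implant. At these counts a difference between the groups was not detectable. Col21a1, a further fibril-associated chain, was not analysed here.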

How the data were processed

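Polyadenylated RNA of 6 libraries (3 NC, 3 implant) was sequenced, per the labels' protocols, with a NEBNext Ultra RNA kit, which does not mark strand. Tools listed without roles in the submitters' processing notes are HISAT2, Bowtie2 2.2.8, DESeq2 and StringTie 1.3.1. Neither build nor annotation is stated in these sources. The authors deposited estimated counts (expected counts) per gene that had not been normalized, made by a counter not named in these sources, and rounding to whole numbers came before any test. Columns named Gel_HA-Mg were taken as the GDNF-Gel/HA-Mg samples, from their titles.

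Genes were filtered with filterByExpr, scaled by TMM and tested in R 4.3.3 with the two-sided quasi-likelihood test of edgeR 4.0.16, with group as its single term. A call needed an adjusted p (Benjamini-Hochberg, over all 13999 genes) under 0.05. Standard errors were derived from the fold change and its F statistic. Intervals took the normal distribution for the multiple of the standard error, so they are approximate and narrower than the test implies. The test was checked on simulated data, which do not give its power for the collagen genes. Total counts of 15897850 to 18491379 per library set the precision, and counts below the filter give no test. No 2 libraries of the same group agreed within sampling noise (chi-square per degree of freedom 86.5 to 536). Alternatives were other scalings, filters and tools (DESeq2 1.42.0, limma 3.58.1), the replicate number as a block, each library left out, and Col20a1 summed with Arfgap1, added after seeing the data.

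The members and gene lists were chosen with earlier results of these data known. Values are given by library for the 3 tested members with the highest mean CPM in each class (2 for transmembrane and other collagens), for members with an unadjusted p under 0.05, no overlap or an over 8-fold spread, and for the 2 pathway genes of smallest unadjusted p per list, most of these as means. Other members with values by library, and the promoters of Col9a2, Col7a1, Col9a1 and Col23a1, were chosen after their values were seen. Sequences are from RefSeq (GRCr8). Some Schwann cell markers are not reported here and are not part of the summed level.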

Additional observations from a re-analysis of the deposited data

How the results depend on the processing

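No collagen gene or collagen pathway gene was called under any of the 14 alternatives run. The chain ratios were recomputed only with the replicate block and without each library, where so few libraries could give no call. Over all genes, DESeq2 called 11 (5 higher, 6 lower) where edgeR and the other alternatives called 0. The median log2 fold change of the tested collagen genes was -0.10, -0.08 with the replicate block and -0.17 to 0.07 when a library was left out. The labels do not say that the replicate numbers pair the samples. Correlations of same-numbered deviations were 0.0990, -0.718 and 0.0553. Deviations within a group sum to 0, so these values cannot decide whether the numbers mark a pair. With the replicate block the unadjusted edgeR p of Col22a1 was 0.0623. The sign of a fold change was not stable. Of the 27 collagen genes that the rule for named genes took, 21 changed sign when some library was left out. Leaving out each library, the log2 fold changes ran from -0.12 to 0.26 for Col6a3, -1.38 to 0.86 for Col6a5, -0.15 to 0.12 for Col14a1, -0.34 to 0.18 for Col12a1, -0.40 to 0.13 for Col16a1, -0.56 to 2.14 for Col20a1, -0.50 to 1.91 for Col9a3, -0.98 to 2.58 for Col9a2, -1.54 to 3.30 for Col9a1, -0.33 to 0.017 for Col3a1, -0.31 to 0.052 for Col1a1, -1.39 to 0.57 for Col24a1, -0.88 to 2.37 for Col2a1, -0.49 to 0.0356 for Col4a1 and -0.47 to 0.035 for Col4a2. They ran from -0.21 to 0.73 for Col8a1, -0.19 to 0.043 for Col15a1, -0.0803 to 0.28 for Col18a1, -0.91 to 2.41 for Col7a1, -1.44 to 1.56 for Col23a1 and -0.0568 to 0.40 for Col17a1. Signs also turned with the replicate block for Col9a2 (-0.29), Col9a1 (1.34), Col2a1 (1.13), Col7a1 (-0.0179) and Col23a1 (0.61), and with limma-voom for Col9a1 (1.03) and Col2a1 (0.37). The cause was not tested. The other 6 kept their sign in all alternatives run, though their size moved when a library was left out, from -1.53 to -0.79 for Col22a1, -1.57 to -0.48 for Col11a1, -0.28 to -0.06 for Col1a2, 0.16 to 3.27 for Col28a1, 0.04 to 0.47 for Col6a1 and 0.04 to 0.45 for Col6a2.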
